A study of Mus musculus with 6 samples.

Results

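The genes described here encode 10 molecules of the B cell surface, out of 22367 protein-coding genes in the GENCODE M1 annotation of mm9. They were chosen by name: Cd22, Cd72, Cd24a, Cd37, Cd38, Ptprc and Cd53, called early below, and Cr2, Fcer2a and Ms4a1, which are used as markers of mature B cells. Each gene was examined in a window of its gene body plus 10 kb on each side, and at its start. At the start means within 1000 bp of the annotated start of any of its transcripts, coding or not. The measurements were ChIP-seq profiles of H3K27ac, H3K4me3 and Pax5 in pre-B cells of C57BL/6 mice aged 6 to 14 weeks, of both sexes, made to relate chromatin to the rearrangement of Vκ light chain genes. The labels name bone marrow and spleen as sources of cells, and bone marrow for the purified subsets. All samples had the genotype RAG-/- µ+: the mice could not recombine their own receptor genes and carried an already rearranged IgM heavy chain transgene. No other genotype, stage or treatment was profiled among these 6 samples, so early and mature genes were compared within 1 kind of cell, which could not make a light chain. The labels do not give the number of mice behind a library.

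B cells carry receptors that tune signals from the antigen receptor, and the set on the surface changes as the cells mature. Inhibitory lectins such as CD22 and CD72, the phosphatase CD45 and several adhesion and tetraspanin molecules are present early, whereas CD21, CD23 and CD20 are used to follow maturation. H3K27ac marks active enhancers and promoters, H3K4me3 marks active promoters, and Pax5 is the transcription factor that holds cells in the B lineage.

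Each profile came from 1 library and was deposited as a list of positions, and the 3 input samples were not used here as reads. The H3K27ac list held 69345 peaks with scores from 3.06 to 330.0, the Pax5 list held 15445 peaks with scores from 87.9 to 3214.1, and the H3K4me3 list held 782636 bins of 25 bp without a score, which were joined across gaps of up to 100 bp into 17979 regions. A score ranks peaks within its own list only, and library depth is unknown. With 1 library per list there was no replicate check and no test was possible, so counts of genes are given beside the same count over all genes. The pre-B label was checked with 7 genes of pre-B cells, of which 7 had H3K27ac, 6 had H3K4me3 and 7 had Pax5 at the start. Of 4 myeloid genes, 4 had H3K27ac at the start, with scores from 8.01 to 14.1, 3 had H3K4me3, with widest regions from 75 bp (Lyz2) to 775 bp (Itgam), and 1, Fcgr3, had Pax5. The stromal gene Col1a1 had H3K27ac alone at the start, with a score of 7.40. The 5 genes of T, erythroid and NK cells had no peak of any list at the start. The part that other cells in the preparation play in the results was not tested.

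The sequence just upstream of the starts differed widely among the 9 genes for which it was examined, all but Ms4a1. The 250 bases before the outermost start are shown for Cd24a and Cd38, which had the widest H3K4me3 regions, and for Cr2 and Fcer2a, which had none at the start. They are printed 5′ to 3′ in the direction of transcription, from the mm9 genome, with each CpG in capitals.
Cd24a upstream of the start, chr10:43298725-43298974, plus strand: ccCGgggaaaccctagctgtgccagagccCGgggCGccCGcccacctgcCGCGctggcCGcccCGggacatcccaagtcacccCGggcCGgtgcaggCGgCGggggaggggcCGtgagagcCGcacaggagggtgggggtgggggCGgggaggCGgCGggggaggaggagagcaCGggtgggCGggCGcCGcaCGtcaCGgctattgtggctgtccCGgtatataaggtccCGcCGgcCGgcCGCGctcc
Cd38 upstream of the start, chr5:44259798-44260047, plus strand: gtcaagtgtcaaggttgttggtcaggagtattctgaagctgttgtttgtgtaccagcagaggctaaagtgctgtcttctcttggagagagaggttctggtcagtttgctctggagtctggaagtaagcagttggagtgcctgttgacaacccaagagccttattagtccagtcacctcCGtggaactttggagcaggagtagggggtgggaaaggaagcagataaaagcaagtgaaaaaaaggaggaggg
Cr2 upstream of the start, chr1:197002910-197003159, minus strand: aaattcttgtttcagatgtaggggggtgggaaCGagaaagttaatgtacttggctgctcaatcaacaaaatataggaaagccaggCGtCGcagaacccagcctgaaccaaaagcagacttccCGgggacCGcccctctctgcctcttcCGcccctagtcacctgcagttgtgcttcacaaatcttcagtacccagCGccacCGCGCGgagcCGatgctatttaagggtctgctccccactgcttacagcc
Fcer2a upstream of the start, chr8:3694175-3694424, minus strand: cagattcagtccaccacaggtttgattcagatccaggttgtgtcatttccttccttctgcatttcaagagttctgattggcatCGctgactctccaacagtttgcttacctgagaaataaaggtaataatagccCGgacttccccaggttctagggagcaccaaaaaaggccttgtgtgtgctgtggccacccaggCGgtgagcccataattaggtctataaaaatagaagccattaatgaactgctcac

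These stretches held 29 CpG in Cd24a, 1 in Cd38, 11 in Cr2 and 3 in Fcer2a. Over 250 bases before to 50 bases after the start, the ratio of observed to expected CpG was 0.812 in Cd24a and 0.0533 in Cd38, against a median of 0.534 over all protein-coding genes. The widest H3K4me3 regions among these genes therefore lay over the most and the least CpG-rich of these 9 starts. The median ratio was 0.780 over all genes with H3K4me3 at the outermost start and 0.233 over those without. The other early genes had ratios from 0.239 (Cd37) to 0.481 (Ptprc), all below the median of all genes, although each carried H3K4me3. Cr2 had 0.586, above that median and without H3K4me3, whereas Fcer2a had 0.191. GC content of the same stretch ran from 33.7% in Ptprc to 75.0% in Cd24a, with a median of 55.0% over all genes.

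All 7 early genes carried both histone marks at their start, and none of the 3 mature B cell genes did. H3K27ac lay at the start of 7 of 7 early and 1 of 3 mature genes, against 49.0% of all protein-coding genes. H3K4me3 lay at the start of 7 of 7 early and 0 of 3 mature genes, against 53.0% of all genes. Both histone marks were found together at 45.8% of all starts. For Pax5 the groups were less far apart, with 4 of 7 early genes (Cd22, Cd72, Cd24a and Cd37) and 1 of 3 mature genes (Cr2), against 38.1% of all genes. The 4 early genes with Pax5 were also the 4 members with all 3 lists at the start, a combination seen at 34.9% of all genes.

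**Figure D1:**
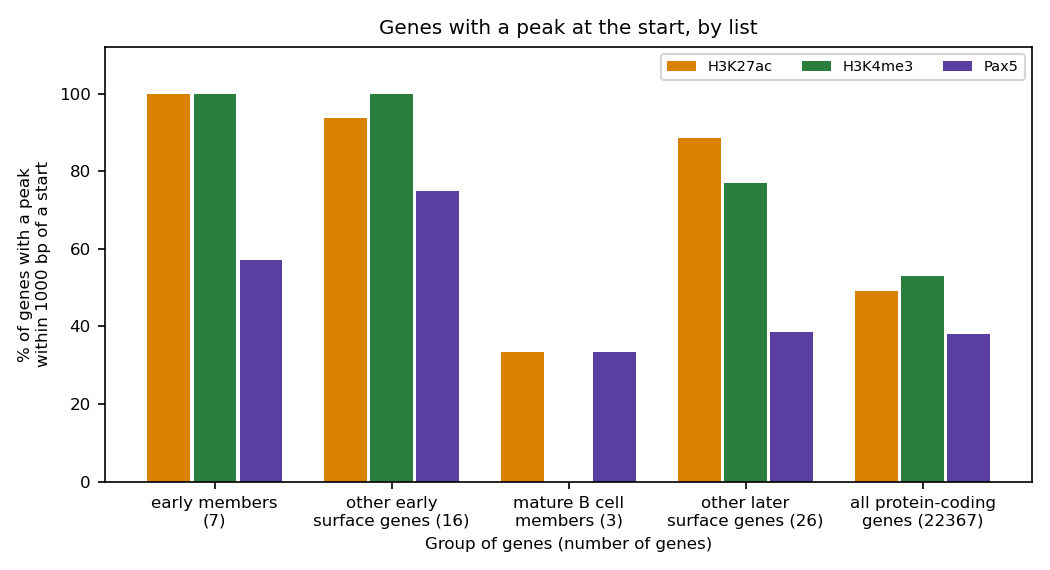
Percent of genes with a peak within 1000 bp of a start (y axis) in H3K27ac, H3K4me3 and Pax5 for 5 groups of genes (x axis, number of genes in brackets), with 1 library per list. The early members reach 100% in both histone marks, while of the 3 mature B cell members 1 has H3K27ac, 0 have H3K4me3 and 1 has Pax5.

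In the wider windows the counts of the groups were closer. A peak lay in the window of 9 of 10 members for H3K27ac, 9 for H3K4me3 and 9 for Pax5, against 63.2%, 61.5% and 52.0% of all genes. A peak is called only at another gene where it lay within 1000 bp of that gene's start and not at the member's own. This holds even where it reached into the member's gene body. Once peaks that lay only at the start of another gene were left out, 1 of the 3 mature genes kept an H3K27ac peak (Cr2), 0 kept an H3K4me3 region and 2 kept a Pax5 peak (Cr2 and Ms4a1). All 7 early genes kept both histone marks, and 6 of the 7 kept Pax5, the exception being Cd53. With the same peaks left out, 59.6% of all genes kept H3K27ac, 56.5% kept H3K4me3 and 45.6% kept Pax5. The windows of the early genes held 71 H3K27ac peaks that were not only at another gene, 12 at the start and 59 elsewhere. Per early gene these ran from 2 (Cd72) to 21 (Ptprc). Those of the mature genes held 1. Over all genes the median was 2 H3K27ac peaks per window, with those at other genes' starts counted. Windows ranged from 25.1 kb for Cd24a to 132.4 kb for Ptprc, and a long window has more room for peaks.

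**Figure D2:**
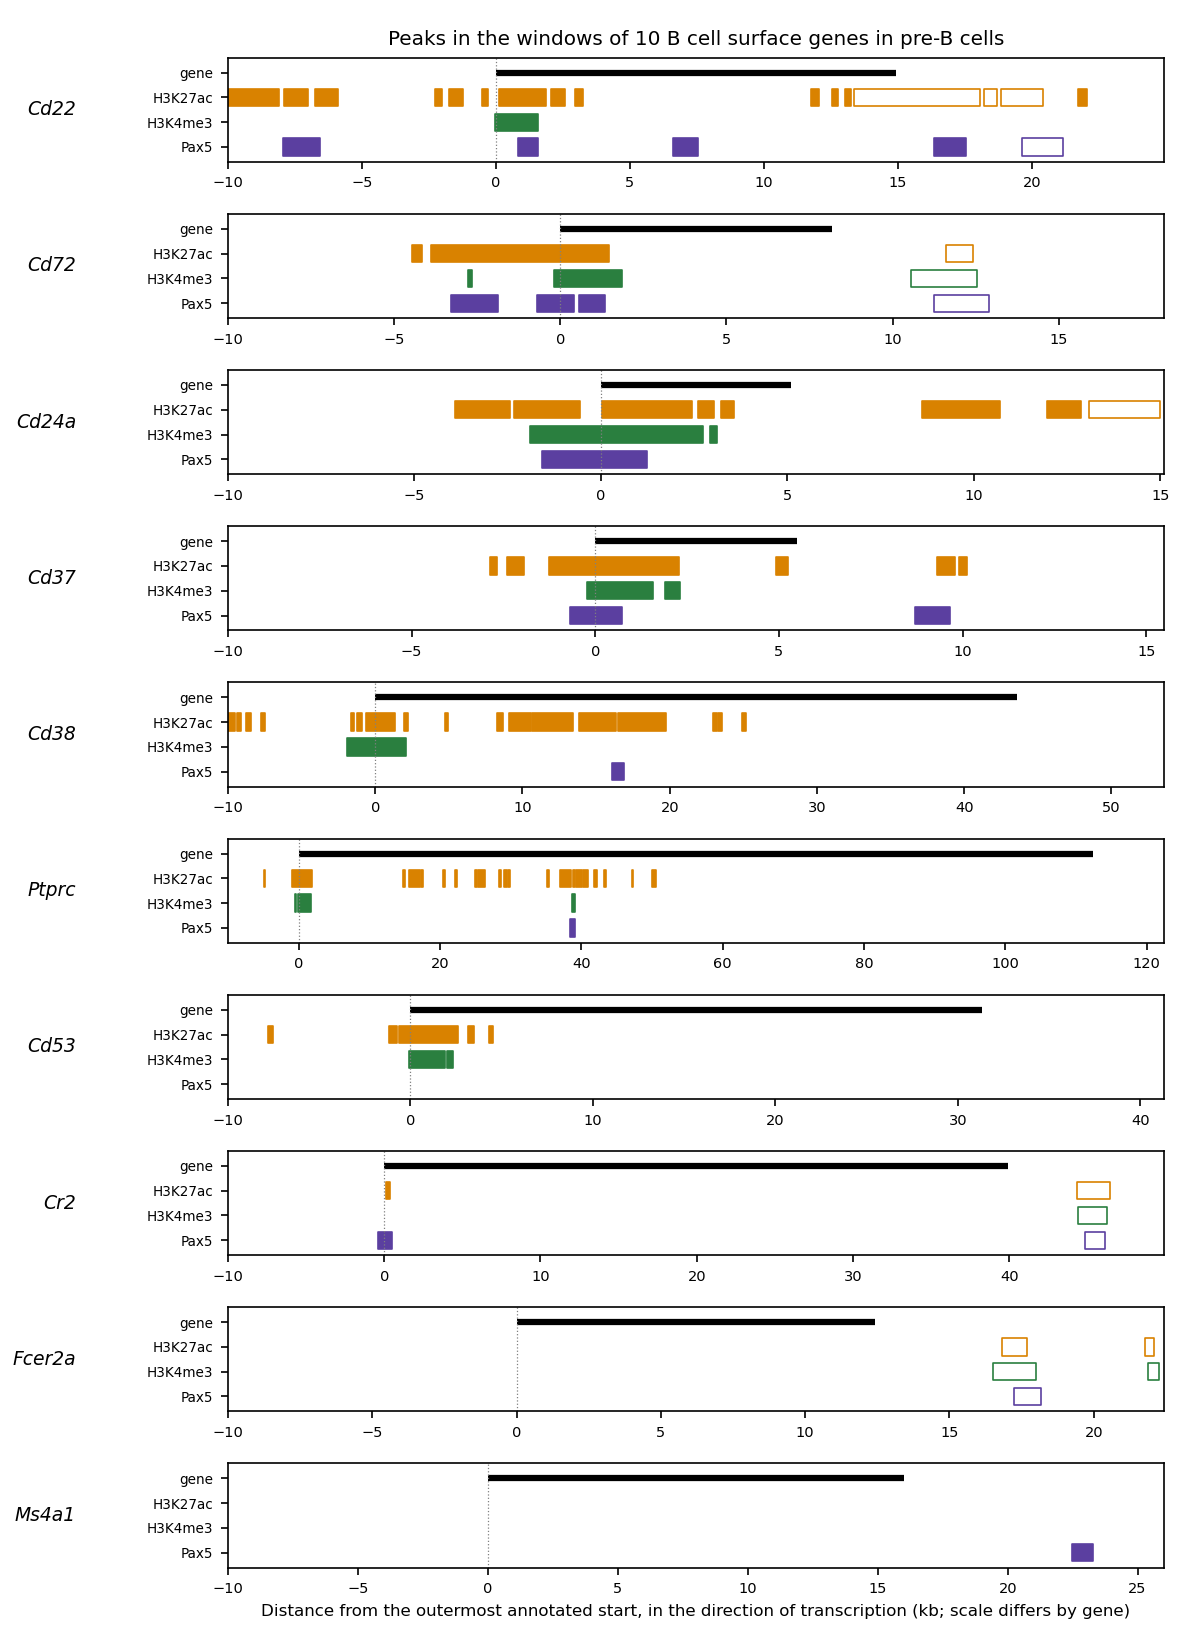
Positions of peaks in the window of each gene, by distance in kb from the outermost start in the direction of transcription (x axis, scale differs by gene), with the gene body as a black line and 1 row per list. Filled bars are peaks of the gene. Open bars are peaks within 1000 bp of another gene's start and not at the gene's own. They are all the bars at Fcer2a and all but 2 at Cr2.

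Cd22 is a sialic acid binding lectin that dampens antigen receptor signals, at chr7:31650421-31665361 on the minus strand. H3K27ac peaks covered 43.3% of its window, percentile 99.4 of all genes, in 16 peaks. Without the 3 peaks within 1000 bp of the start of Ffar1 the share was 23.8%, percentile 97.7 of all genes counted in that way. The peak at its start was modest, with a score of 19.8 (percentile 30.7 of genes with a start peak). A higher score, 71.6, belonged to a peak of 4721 bp at chr7:31647280-31652000, over the end of Cd22 and within 1000 bp of the start of Ffar1. That peak was among the 3 left out above, so the 23.8% omits H3K27ac that lay on Cd22 itself. The H3K27ac of Cd22 was thus spread over many peaks rather than gathered at the start. H3K4me3 covered 1575 bp, from 18 bp upstream to 1556 bp downstream of the start.

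Pax5 had 5 peaks in the Cd22 window, the most of any member. The peak at the start scored 299 and lay 827 to 1584 bp downstream of the outermost start, with its middle in intron 3. The strongest scored 872 (rank 916 of the list) and lay 6612 to 7555 bp downstream, at chr7:31657806-31658749, with its middle in exon 8. That peak overlapped neither H3K27ac nor H3K4me3. The other 3 scored 146, 170 and 192, lay in the flanks and each overlapped H3K27ac. Over all 15445 Pax5 peaks, 79.3% overlapped H3K27ac and 61.0% overlapped H3K4me3. Of the 18 Pax5 peaks in the windows, 16 overlapped H3K27ac and 10 overlapped H3K4me3, and the 2 with neither were the exonic peak of Cd22 and the peak near Ms4a1.

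Cd72 is a C-type lectin with an inhibitory motif, at chr4:43459334-43467500 on the minus strand. Its start lay inside 1 H3K27ac peak of 5357 bp, which reached from position -3877 to 1479 bp relative to the outermost start with a score of 81.2 (percentile 87.9). H3K4me3 formed a region of 2050 bp at the start and 1 of 125 bp further upstream, from -2785 to -2661 bp. Of its own Pax5 peaks, those at the start scored 200 and 96.2, and 1 from -3280 to -1886 bp scored 173, so Pax5 was found along the same upstream stretch as H3K27ac. Beyond the other end of the gene, peaks at the start of Tesk1 had higher values for Pax5, with a score of 937, beside H3K27ac of 73.5 and H3K4me3 of 2000 bp.

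Cd24a encodes a small glycosylphosphatidylinositol-anchored glycoprotein that is high on immature B cells, at chr10:43298975-43304068 on the plus strand. Its start had the widest H3K4me3 region of the members, 4625 bp (percentile 99.4), and the highest Pax5 score, 1146, in a peak of 2796 bp (percentile 95.3). H3K27ac flanked the start, with a score of 62.5 on the upstream side and 80.2 on the downstream side, and the upstream peak ended at -571 bp and the downstream peak began at 17 bp. All 3 lists thus gave high values at a single start. H3K27ac covered 45.1% of the window, the largest share among the members. The window also takes in an H3K27ac peak with a score of 10.6 that lies within 1000 bp of the start of F930017D23Rik.

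Cd37 and Cd53 encode tetraspanins, membrane proteins that organise other receptors, and they differed in Pax5. Cd37, at chr7:52489002-52494485 on the minus strand, had the highest H3K27ac score at a member's start, 116 (percentile 95.5), with H3K4me3 of 1800 bp and a second region of 400 bp. Pax5 scored 675 at its start (percentile 86.0) and 136 past its 3′ end, 8693 to 9658 bp from the start. Cd53, at chr3:106561779-106593067 on the minus strand, had H3K27ac of 37.8 in a peak of 3200 bp and H3K4me3 of 1975 bp at the start, but no Pax5 peak in its window. The nearest Pax5 peak to a start of Cd53 was 21.7 kb away. Of the 32-base words around this start, 86.1% occurred at most 3 times in the genome, the lowest share among the members, for which the other shares ran from 88.7% (Fcer2a) to 100%. The paper's methods keep reads with up to 3 best positions, although they name another Bowtie version than the submitters' notes, and what part this plays for Cd53 was not tested.

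Cd38 is an ectoenzyme that makes cyclic ADP-ribose from NAD, at chr5:44260048-44303614 on the plus strand. H3K4me3 spanned 4050 bp over its start (percentile 98.8), the second widest of the members, while H3K27ac there scored 29.4, below the median of 31.7 for genes with a start peak. The highest H3K27ac scores, 62.7 and 48.4, lay inside intron 1. Together with a peak of 28.3 they formed a run of 3 consecutive peaks from 10674 to 19719 bp downstream. Weaker peaks, of 5.94 and 8.73, lay shortly before this run, between 8278 and 10548 bp. Among the 8 members with H3K27ac of their own, Cd38 alone had a higher score elsewhere, with peaks only at another gene's start left out. At Cd22 the score of the start peak, 19.8, was shared by 2 peaks upstream of the gene. Left-out peaks scored higher than the start peak at Cd22 (71.6, over the end of the gene) and at Cr2 (143, at the start of Cr1l). The only Pax5 peak of the window, with a score of 239, lay 16064 to 16859 bp downstream and spanned the gap between the peaks of 62.7 and 48.4. Pax5 at Cd38 was therefore found in the intronic H3K27ac group and not at the start.

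Ptprc encodes CD45, the receptor tyrosine phosphatase whose long isoform in B cells is called B220, at chr1:139959438-140071882 on the minus strand. H3K27ac scored 77.7 at the start (percentile 86.7) and H3K4me3 was 1850 bp wide there. A further 19 H3K27ac peaks lay in introns 2 and 3, with scores from 4.39 to 20.9, and 1 lay upstream. The highest of these, 20.9, shared its place with an H3K4me3 region of 400 bp and a Pax5 peak of 424 at chr1:140032735-140033534, 38348 to 39147 bp downstream of the start in intron 2. Among the Pax5 peaks of the members away from a start, this was 1 of 2 that overlapped H3K4me3, the other being the upstream peak of Cd72. No Pax5 peak lay at the start of Ptprc, and the nearest was 16.1 kb away.

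**Figure D3:**
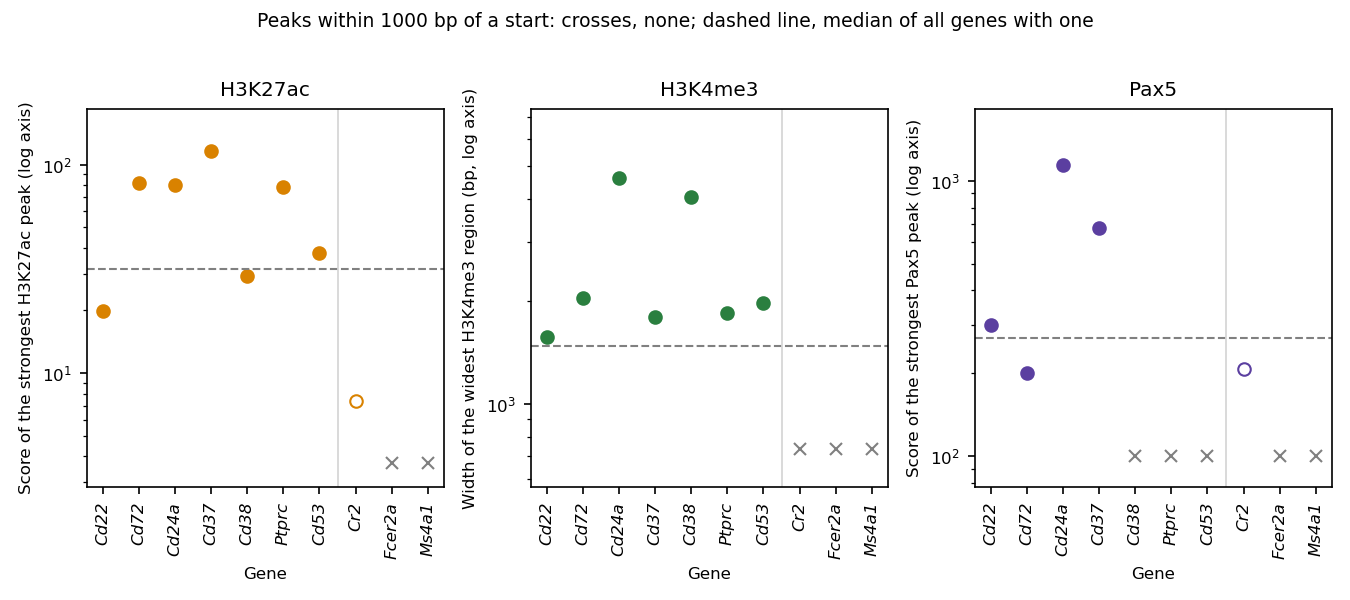
Highest H3K27ac score, widest H3K4me3 region in bp and highest Pax5 score within 1000 bp of a start (y axes, log scale) for each gene (x axis), with mature B cell genes as open circles to the right of the grey line. Crosses mark genes with no peak at the start and have no value, and the dashed lines are the medians of all genes with such a peak, 31.7, 1475 bp and 269.

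The sequences of 3 Pax5 peaks away from a start are shown because the surroundings of these peaks differed. The peak of Cd22 had no histone mark, that of Cd38 had H3K27ac alone and that of Ptprc had both. The middle 300 bases of each are printed 5′ to 3′ in the direction of transcription of the gene, from mm9. Capitals mark matches to the motifs searched, which in these 3 stretches were an E box (CAGCTG) and ETS cores (GAGGAA, or TTCCTC when read on the other strand).
Cd22 Pax5 peak, chr7:31658128-31658427, minus strand: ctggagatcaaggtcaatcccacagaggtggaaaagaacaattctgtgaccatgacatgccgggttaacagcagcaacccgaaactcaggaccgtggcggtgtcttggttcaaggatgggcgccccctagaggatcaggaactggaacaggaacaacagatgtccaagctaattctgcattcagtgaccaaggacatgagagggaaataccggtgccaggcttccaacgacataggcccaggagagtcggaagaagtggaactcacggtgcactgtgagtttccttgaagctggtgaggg
Cd38 Pax5 peak, chr5:44276360-44276659, plus strand: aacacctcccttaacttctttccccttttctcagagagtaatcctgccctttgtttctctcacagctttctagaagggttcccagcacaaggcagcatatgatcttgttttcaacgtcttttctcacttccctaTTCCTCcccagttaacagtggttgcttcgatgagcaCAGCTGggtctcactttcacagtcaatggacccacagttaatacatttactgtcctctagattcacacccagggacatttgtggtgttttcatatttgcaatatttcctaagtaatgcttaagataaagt
Ptprc Pax5 peak, chr1:140032985-140033284, minus strand: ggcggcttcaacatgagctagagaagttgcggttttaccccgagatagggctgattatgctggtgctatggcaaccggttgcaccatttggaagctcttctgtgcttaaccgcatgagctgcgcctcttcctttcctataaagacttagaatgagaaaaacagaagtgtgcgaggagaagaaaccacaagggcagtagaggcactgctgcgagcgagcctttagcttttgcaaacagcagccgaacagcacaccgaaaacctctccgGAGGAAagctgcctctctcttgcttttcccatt

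A Pax5 core (GCNTGAC on either strand) was absent from the central 300 bases of all 14 Pax5 peaks of the members themselves. With the 4 peaks at neighbouring starts added, 1 of 18 held it, the peak at Cr1l, against 18.4% of all Pax5 peaks. In the whole peak the core was found in 6 of 18, against 39.7% of all Pax5 peaks. Among the members' own peaks these were the exonic and start peaks of Cd22, the start peak of Cd24a and the downstream peak of Cd37. All but the Cd22 start match are printed here with 20 bases on each side and the core in capitals.
Cd22 core, chr7:31658719-31658765, plus strand: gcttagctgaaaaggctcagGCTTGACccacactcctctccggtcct
Cd24a core, chr10:43299595-43299641, minus strand: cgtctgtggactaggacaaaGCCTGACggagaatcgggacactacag
Cd37 core, chr7:52485029-52485075, minus strand: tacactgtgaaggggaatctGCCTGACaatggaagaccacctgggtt

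These matches lay away from the middle of their peaks, by 462 bp in the exonic peak of Cd22 and 817 bp in Cd24a. In the stretch from 250 bases before to 50 after the start, none of the 9 members examined held the Pax5 core, which 10.3% of all promoters of that length held. None of the 9 held the octamer (ATGCAAAT, 1.73% of all promoters) or the E box (15.2%) there. The EBF1 core (CCCNNGGG, 15.1% of all) was present in Cd37 and Cd53, and the ETS core (28.1% of all) in Cd22, Cd72, Ptprc, Cd53 and Cr2. Both strands were searched for each motif. A match is a description of the letters and is not a measured site.

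H3K4me3 at the early genes lay mostly downstream of the start. In the 2 kb on each side of the outermost start, more bases were covered downstream than upstream in 7 of 7 early genes, as in 75.0% of all genes with H3K4me3 at the start. At Cd22 the covered length was 18 bp upstream and 1557 bp downstream, and at Cd53 it was 101 and 1874 bp. Cd24a and Cd38 were covered on both sides, with 1897 and 1952 bp upstream and 2000 bp downstream in each. For H3K27ac, 6 of 7 early genes were covered more downstream, as were 59.4% of all genes with such a peak, and Cd72 was the exception with 2000 bp upstream and 1480 bp downstream. For Pax5 this held for 3 of the 4 early genes with a peak, Cd24a being the exception, and for 57.1% of all genes with Pax5 at the start.

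**Figure D4:**
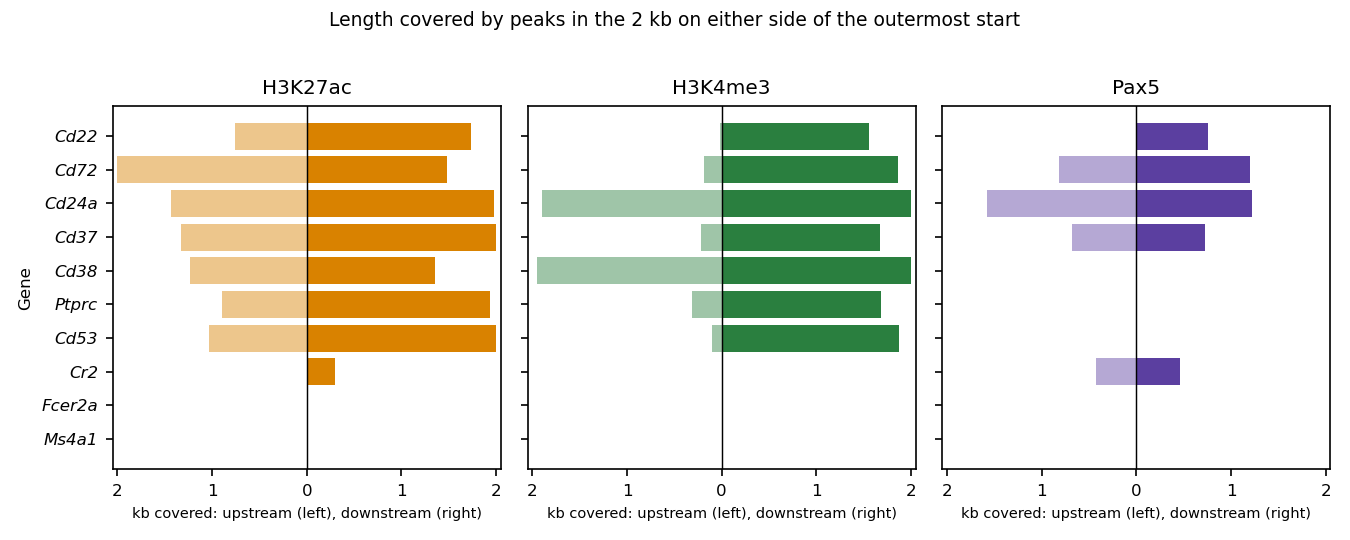
Length in kb covered by peaks in the 2 kb upstream (pale bars, to the left) and downstream (dark bars, to the right) of the outermost start of each gene (y axis), by list. H3K4me3 bars are longer on the downstream side in all 7 early genes, are nearly equal on both sides in Cd24a and Cd38, and are missing in the 3 mature B cell genes.

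Cr2 encodes the complement receptors CD21 and CD35, at chr1:196963005-197002909 on the minus strand. A Pax5 peak with a score of 207 lay over its start, at chr1:197002445-197003337, from 428 bp upstream to 464 bp downstream (percentile 37.7). H3K27ac there was a single peak of 296 bp with a score of 7.40 (percentile 5.44), and no H3K4me3 region lay nearer than 44.3 kb. A Pax5 peak at the start without H3K4me3 was found at 0.943% of all genes, or 211 of 22367, and Cr2 was the only member among them. Its H3K27ac score equalled that at Col1a1, a gene of stromal cells. Scores were often tied, with 2083 distinct values among 69345 peaks, and 7.40 also occurred in an intron of Ptprc and upstream of Cd53. That score was the lowest of the 5 genes of other cell types with H3K27ac at the start. The next gene, Cr1l, had H3K27ac of 143, H3K4me3 of 1850 bp and Pax5 of 328 at its start, past the 3′ end of Cr2. The window of Cr2 therefore held all 3 lists, although H3K4me3 was found only at the neighbour.

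Fcer2a encodes CD23, the low-affinity IgE receptor, at chr8:3681737-3694174 on the minus strand. No peak of any list lay in the gene body or within 10 kb upstream of it. All peaks of its window belonged to neighbours past its 3′ end: at Trappc5 H3K27ac scored 68.0, H3K4me3 was 1500 bp wide and Pax5 scored 897, and at 2400009B08Rik H3K27ac scored 5.94 and H3K4me3 was 375 bp wide. The nearest peak to a start of Fcer2a was 12.7 kb away.

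Ms4a1 encodes CD20, a membrane protein linked to calcium entry, at chr19:11324654-11340669 on the minus strand. Its window held no H3K27ac or H3K4me3, and the nearest to a start were 26.6 and 26.8 kb away. A single Pax5 peak, with a score of 177, lay past the 3′ end of the gene at chr19:11317404-11318174, without either histone mark. Fcer2a and Ms4a1 were thus the 2 members with no peak of any list at the start. Of the 32-base words around the starts, 94.6% in Cr2 and 88.7% in Fcer2a occurred at most 3 times in the genome.

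The share of the window covered by peaks ordered the genes in another way. H3K27ac covered a median of 23.0% of the early windows, from 8.78% (Cd53) to 45.1% (Cd24a), and a median of 3.75% of the mature windows, from 0% (Ms4a1) to 4.11% (Cr2). The ranges did not overlap, and the median over all genes was 1.87%. For H3K4me3 the early windows ran from 1.81% to 19.1% and the mature windows from 0% to 5.78%, and for Pax5 from 0% to 17.5% and from 2.14% to 3.59%, so in both lists the ranges overlapped. Without peaks only at another gene's start, the H3K27ac median was 20.6% for the early and 0% for the mature genes, with 23.8% in Cd22, 37.6% in Cd24a and 0.494% in Cr2, against 1.24% over all genes. Counted in that way, H3K4me3 covered 1.81% to 19.1% of the early windows and none of the mature windows. For Pax5 the ranges still overlapped, with 0% (Cd53) to 12.3% (Cd22) in early windows and 0% (Fcer2a) to 2.14% (Ms4a1) in mature windows. Cd38, with 1.25%, and Ptprc, with 0.604%, were below Cr2, with 1.49%. The Pax5 median was 9.30% for the early genes, 1.49% for the mature genes and 0% over all genes.

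**Figure D5:**
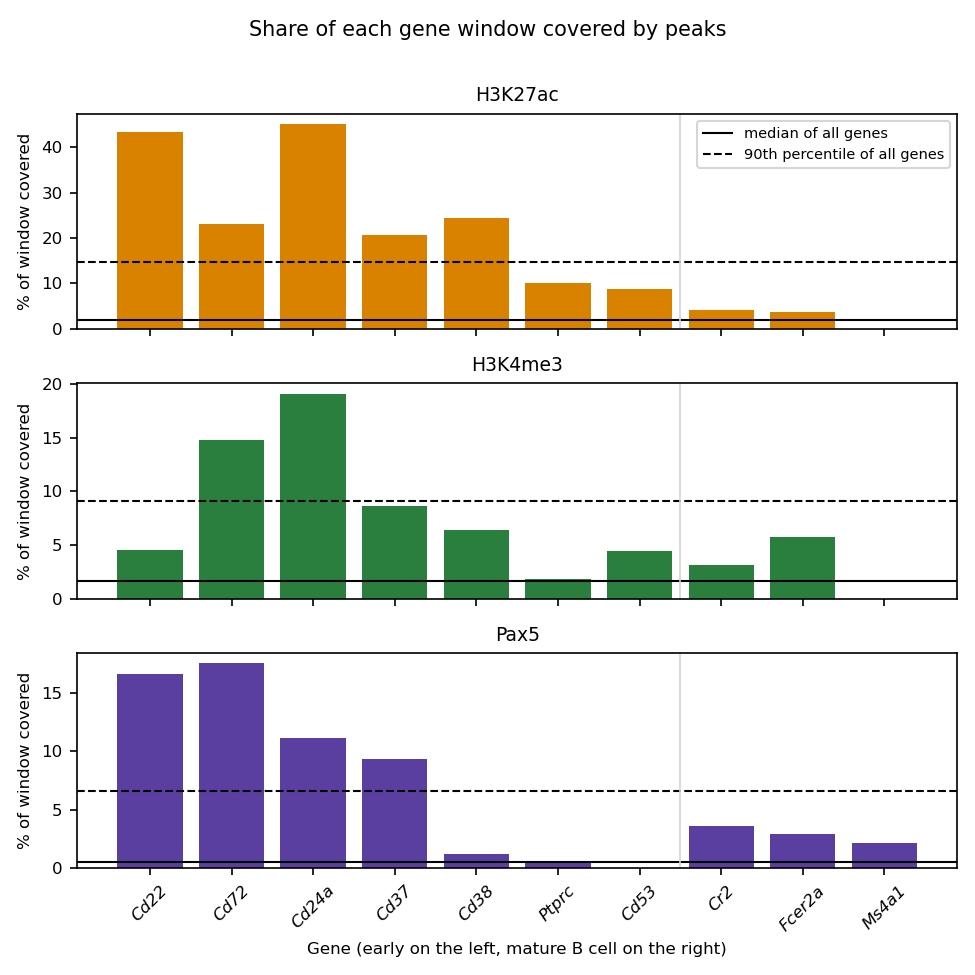
Percent of each gene window covered by peaks (y axis, starting at 0) for each gene (x axis), 1 panel per list. Solid and dashed lines are the median and the 90th percentile of all protein-coding genes, and H3K27ac exceeds the dashed line, at 14.7%, in Cd22, Cd72, Cd24a, Cd37 and Cd38.

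Other surface genes were looked up for comparison, in 2 lists that hold none of the members. Of 16 other early or pre-B surface genes, 15 had H3K27ac, 16 had H3K4me3 and 12 had Pax5 at the start, which for both histone marks is near the early members' 7 of 7. For Pax5 the share was 75.0%, above the 57.1% of the early members. Over all genes the shares were 49.0% for H3K27ac, 53.0% for H3K4me3 and 38.1% for Pax5. The highest Pax5 scores of these 16 genes were at Cd47 (1182) and Cxcr4 (720), so that Cd24a, with 1146, would stand second among them. The other 6 named by rank were Cd93, Flt3, Cd79a, Cd2, Cd79b and Kit, with Pax5 scores from 664 down to 178. Of 26 other surface genes of later B cells, 23 had H3K27ac, 20 had H3K4me3 and 10 had Pax5 at the start. These are 88.5%, 76.9% and 38.5%, the last near the share of all genes. The absence of H3K4me3 at Cr2, Fcer2a and Ms4a1 was therefore not shared by most genes of that kind. The 2 without a peak of any list at the start, like Fcer2a and Ms4a1, were Fcrl5 and Tnfrsf17, and the 1 with Pax5 but no H3K4me3, like Cr2, was Cd5. The highest Pax5 scores in that list were at Siglecg (500), Cd55 (398) and Tnfrsf13c (368), above the 207 of Cr2, and S1pr1, Icosl, Cd40, Cd69 and Ccr7 followed with 243 down to 109.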

How the data were processed

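ChIP-seq of H3K27ac, H3K4me3 and Pax5 in pre-B cells was analysed from 3 deposited lists, with 1 library each. The submitters' processing notes name Bowtie 0.12.9, MACS 1.4.2 and mm9, the header of the H3K27ac list names MACS, the name of the Pax5 list gives MACS and input, and the paper's methods, which name another Bowtie version, state that duplicates were removed and reads with up to 3 best positions kept. The score of each H3K27ac and Pax5 peak is the authors' own, on a scale the deposited lists do not name, and served only to order peaks of the same list. The deposited H3K4me3 list holds other values than scores, namely the positions of 25 bp bins, and how the authors chose them is not given in the sources used here. Depth is unknown, and no interval is given.

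Positions refer to NCBIM37 (mm9) with GENCODE M1, and 0 intervals passed a chromosome end. Overlap meant at least 1 bp. A gene's percentile is among all protein-coding genes, or those with a start peak. Copies of 32-base words were counted on both strands. The member genes, the comparison lists and the windows were chosen with earlier results of these data known. All 10 members are named, with neighbours whose start lies within 1000 bp of a peak, and other surface genes by Pax5 score or lack of peaks. Cell type lists were pre-B (Cd79a, Cd79b, Vpreb1, Igll1, Ebf1, Pax5, Blnk) and other cells (Cd3e, Cd4, Cd8a, Itgam, Lyz2, Mpo, Fcgr3, Gata1, Ncr1, Col1a1). A further marker gene and the start sequence of Ms4a1 are not reported here. No test was run, since no group had a replicate, and the interval and motif code was checked on simulated data. Python 3.11.15, numpy 2.4.6 and matplotlib 3.10.9 were used. Alternatives were other start windows and flanks, midpoints, the higher-scoring 50% of a list, other joining gaps and whole peaks for motifs.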

Additional observations from a re-analysis of the deposited data

How the results depend on the processing

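No paired analysis was possible because there was 1 library per list, and for the same reason no replicate could be left out. Counts of early genes with a peak, at the start or in the window, stayed within 1.5 times under every alternative tried. Of 111 recomputed counts 94 did so. With peak midpoints in the start window, early genes with H3K27ac at the start fell from 7 to 5, losing Cd72 and Cd24a. With the higher-scoring 50% of each list, Pax5 at the start fell from 5 to 3 members (Cd22, Cd24a and Cd37), and mature genes with H3K27ac or Pax5 at the start fell from 1 to 0, because the peaks at Cr2 and Cd72 were in the lower 50%, that of Cr2 for Pax5 by little (rank 7749 of 15445). The same lists left 40 H3K27ac and 9 Pax5 peaks in the windows, of which 8 Pax5 peaks overlapped H3K27ac. With the gene body alone, the windows held 48 H3K27ac peaks, 11 H3K4me3 regions and 9 Pax5 peaks, of which 8 and 6 overlapped H3K27ac and H3K4me3, and mature genes with a peak numbered 1 for H3K27ac, 0 for H3K4me3 and 1 for Pax5. Without peaks only at another gene's start, mature genes with a peak in the window numbered 1 for H3K27ac and 0 for H3K4me3. In whole Pax5 peaks 6 held the core, in place of 1 in the central 300 bases. With 25 kb flanks, Cd53 also had a Pax5 peak. H3K4me3 has no score, so it could not be restricted by one. Absence from a list is absence above the authors' threshold at an unknown depth.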
